A study of Mus musculus with 6 samples.

Results

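The genes described here are 5 members of the STAT family (Stat2, Stat3, Stat4, Stat5a and Stat5b) and 4 feedback genes of the SOCS family (Socs1, Socs2, Socs3 and Cish), in mouse CD8+ T cells treated with an inhibitor of the histone demethylase LSD1. They were chosen by gene symbol, and the 9 genes are 9 of the 16281 rows of the count table. All 9 had enough counts for edgeR's test and were among the 11698 genes tested. The cells came from OT1 mice (strain C57BL/6, genotype Tg(TcraTcrb)1100Mjb, tissue spleen), whose T cells carry 1 transgenic receptor for an ovalbumin peptide. In both groups the CD8+ T cells were activated for 48 h with antibodies to CD3 and CD28 and then expanded for 3 days, with human IL-2 at 20 ng/ml, so IL-2 was supplied from outside to every culture. The group called GSK received GSK2879552, an irreversible LSD1 inhibitor, at 0.5 μM in both phases, and the group called Veh received the vehicle. Each group had 3 samples. The study describes cells from 3 separate OT1 mice, and its figure legend gives 3 mice per group. The sources used here do not give the age of the OT1 mice, nor whether cultures with the same number came from the same mouse. The main test took the samples as unpaired, so any mouse shared between the groups was not accounted for. P-values measure only the spread between these samples. The study asked how LSD1 inhibition during culture changes the expression of CD8+ T cells, and the comparison below asks it of the genes that carry cytokine signals to the nucleus and of those that dampen them.

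STAT proteins are transcription factors that wait in the cytoplasm, are phosphorylated by JAK kinases bound to cytokine receptors, and then move in pairs to DNA. IL-2 acts mainly through STAT5A and STAT5B, IL-12 through STAT4, IL-6, IL-10 and IL-21 mainly through STAT3, and type I interferon through a complex that holds STAT2. Among the genes the STATs switch on are those of the SOCS family, whose proteins bind JAKs or receptors and shut the signal down, so that their messages are often read as a sign of recent cytokine signalling. Phosphorylation of the STATs was not measured in the data used here. From its immunoblots, the study reports that GSK left the main signals downstream of the IL-2 receptor unaffected.

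Total counts lay between 18288447 and 18918811 in the Veh samples and between 19149909 and 19846720 in the GSK samples. Values below are CPM, in which each count is set against the TMM-scaled total of its sample. The labelled cell type was borne out by its markers: all 6 CD8 T-cell markers were present, and their summed level was 2771 to 2880 CPM in Veh and 2657 to 2799 CPM in GSK. Of 17 markers of other cell types, 16 were in the table, and their summed level was 15.3 to 20.2 CPM in Veh and 13.2 to 13.6 CPM in GSK. The myeloid marker Adgre1 and the natural killer cell marker Ncr1 had at most 1 count in any sample, while Cd79b reached 139 counts, Itgax 81, Klrb1c 70 and Itgam 50. The summed level of the natural killer cell markers was 1.52 to 2.36 CPM in Veh and 2.33 to 3.73 CPM in GSK, and that of the dendritic cell markers was 2.52 to 4.41 and 1.36 to 1.68 CPM. The part of these other cells in the results below was not tested. In bulk RNA, fewer cells of a type and less RNA per cell cannot be told apart.

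GSK-treated cells held more mRNA of 3 feedback genes and less of 2 STAT genes. Cish was 1.45-fold, Socs1 1.28-fold and Socs2 1.21-fold higher in GSK, Stat4 was 1.28-fold and Stat5b 1.12-fold lower, and Socs3, Stat5a, Stat3 and Stat2 did not pass the test. The 3 higher genes stand against 16.6% of all tested genes that were higher at an adjusted p under 0.05 (edgeR's quasi-likelihood test, Benjamini-Hochberg adjustment over all tested genes), and the 2 lower genes against 15.5% that were lower. Groups whose samples did not overlap were counted in the same 3 genes upward, against 23.7% of all tested genes, and the same 2 downward, against 23.0%. At an unadjusted p under 0.05 the count was 6 of 9 genes, against 43.0% of all tested genes. None of the 9 genes passed an adjusted p of 0.05 together with a fold change over 1.5: the count was 0 with edgeR, 0 at an unadjusted p and 0 with DESeq2, where 2.22% of tested genes rose and 4.09% fell past both limits. Among all tested genes the median change was -0.0039 on the log2 scale and the median size of a change was 0.16.

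**Figure D1:**
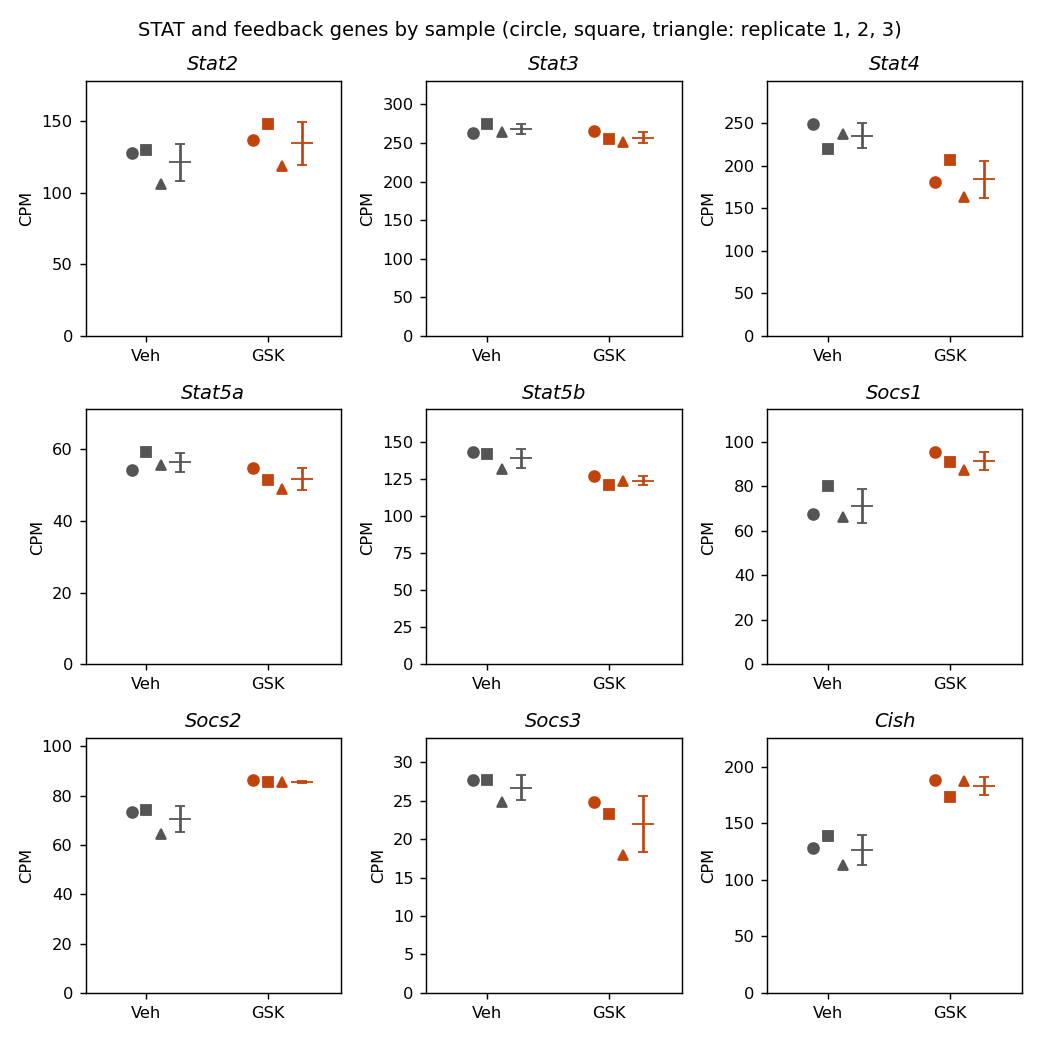
Level in CPM of each of the 9 genes in the 3 Veh and the 3 GSK samples, on a linear axis that starts at 0. Circle, square and triangle are replicates 1, 2 and 3, and the bar is the group mean with its SD as whiskers. The GSK samples lie above all Veh samples for Socs1, Socs2 and Cish and below all of them for Stat4 and Stat5b, and the groups overlap for the other genes.

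Among the feedback genes, Cish changed most. Cish encodes CIS, which dampens IL-2 receptor and T-cell receptor signalling in CD8+ T cells and is a classical target of STAT5. Its level was 128, 139 and 113 CPM in Veh replicates 1, 2 and 3 and 188, 174 and 188 CPM in the GSK replicates. The lowest GSK sample was 34.9 CPM above the highest Veh sample. The mean rose from 126 ± 13.1 to 183 ± 8.14 CPM (SD, n = 3), a log2 fold change of 0.53 (SE 0.068, 95% interval 0.38 to 0.68, adjusted p = 0.00023 by edgeR). In size this change was larger than that of 88.6% of tested genes. On the opposite strand, the antisense gene Gm17041 covers 7.46% and the pseudogene Gm17040 covers 4.07% of the annotated exon bases of Cish, and the sources used here do not say whether the counting used the strand.

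Socs1 encodes the family member that binds and blocks the JAK kinases themselves and restrains interferon-γ and IL-2 signalling. It was measured at 67.3, 79.9 and 66.3 CPM in Veh and at 95.3, 90.9 and 87.3 CPM in GSK, so the groups were separate by 7.41 CPM. Its log2 fold change was 0.36 (SE 0.070, 95% interval 0.21 to 0.51, adjusted p = 0.0024 by edgeR), from 71.2 ± 7.57 to 91.2 ± 4.03 CPM (SD, n = 3).

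Socs2, another STAT5 target, is best known as a brake on growth hormone signalling. It was measured at 73.3, 74.0 and 64.4 CPM in Veh. The GSK samples lay close together at 86.1, 85.4 and 85.4 CPM, all above the Veh samples. The mean rose from 70.6 ± 5.35 to 85.6 ± 0.425 CPM (SD, n = 3), a log2 fold change of 0.28 (SE 0.058, 95% interval 0.15 to 0.40, adjusted p = 0.0030 by edgeR). Of the 50-base windows of Socs2, 4.53% also occur in other genes, chiefly Gm9847, while Socs1 and Socs3 shared none.

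Socs3, which binds the IL-6 receptor chain gp130 and acts mainly on STAT3 signals, did not rise. Its levels were 27.6, 27.6 and 24.8 CPM in Veh and 24.8, 23.2 and 17.9 CPM in GSK. The groups overlapped by 0.028 CPM, and GSK replicate 3 lay apart from the other GSK samples. The log2 fold change was -0.28 (SE 0.11, 95% interval -0.52 to -0.041, adjusted p = 0.069 by edgeR), so the difference did not pass the test. Without GSK replicate 1 it passed, at -0.38 with an adjusted p of 0.041. Without GSK replicate 3 the log2 fold change was -0.15, with an adjusted p of 0.22. As a description, the ratio of Cish to Socs3 counts was 4.54 to 5.02 in Veh and 7.47 to 10.5 in GSK, and the ratio of Socs1 to Socs3 counts had means of 2.67 ± 0.227 and 4.21 ± 0.572 (SD, n = 3).

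Promoter sequence is shown for the feedback gene that changed most, for the one whose promoter holds interferon-type elements, and for the one that did not rise. Each window runs from 250 bases before to 50 bases after the start site, 5′ to 3′ on the gene's strand, from RefSeq annotation of GRCm38.p6. The windows are chr9:107296409-107296708 on the plus strand for Cish, chr16:10785487-10785786 on the minus strand for Socs1 and chr11:117969317-117969616 on the minus strand for Socs3. Capitals mark a STAT element (GAS, letters TTCNNNGAA) in Cish and Socs3 and an interferon-stimulated response element (ISRE, read as GAAA, any pair of bases, GAAA) in Socs1.
Cish: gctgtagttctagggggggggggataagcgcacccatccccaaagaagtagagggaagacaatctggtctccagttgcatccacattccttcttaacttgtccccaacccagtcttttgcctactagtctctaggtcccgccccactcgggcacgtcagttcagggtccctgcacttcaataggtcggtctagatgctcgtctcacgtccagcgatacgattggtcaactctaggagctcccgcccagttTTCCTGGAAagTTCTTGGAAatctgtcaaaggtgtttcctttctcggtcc
Socs1: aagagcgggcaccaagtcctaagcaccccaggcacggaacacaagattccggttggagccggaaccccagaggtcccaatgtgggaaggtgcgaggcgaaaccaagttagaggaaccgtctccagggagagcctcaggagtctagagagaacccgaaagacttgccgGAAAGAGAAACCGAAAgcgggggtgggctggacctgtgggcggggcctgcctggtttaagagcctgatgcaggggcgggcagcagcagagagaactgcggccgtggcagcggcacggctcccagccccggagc
Socs3: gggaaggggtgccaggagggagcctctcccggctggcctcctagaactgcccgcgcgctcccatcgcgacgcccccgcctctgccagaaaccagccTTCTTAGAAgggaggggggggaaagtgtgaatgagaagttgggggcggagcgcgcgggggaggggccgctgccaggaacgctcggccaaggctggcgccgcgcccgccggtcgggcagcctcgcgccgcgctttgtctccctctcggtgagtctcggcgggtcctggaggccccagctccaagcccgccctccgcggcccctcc
The Cish window held 2 GAS matches, and the first begins at the annotated start site. The Socs3 window held 1 GAS match, 154 bases before the start. The whole Socs3 window lies inside the RefSeq span of the gene (chr11:117966079-117970336), not at its outer end as for Cish and Socs1. The Socs1 window held 2 ISRE matches, which share bases and were therefore counted in 1 unbroken run of capitals. Both strands were searched. Windows were found for 8 of the 9 genes, all but Socs2, and some genes have more than 1 start site, so that 11 windows were read. Of these 11, 2 held a GAS match (Cish and Socs3) and 3 held an ISRE match (Socs1, Stat2 and the second start site of Stat4). Among all 32851 promoter windows of the same table, 8.30% held at least 1 GAS match and 0.457% at least 2, while 3.44% held at least 1 ISRE match and 0.225% at least 2. A match describes the letters of a window and is not evidence of binding. Both GAS-bearing genes, Cish at 0.53 and Socs3 at -0.28 on the log2 scale, had estimates of opposite sign.

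Of the STAT genes, Stat4 fell most. STAT4 carries the IL-12 signal and drives interferon-γ production in T cells. Its level was 249.8, 219.8 and 237 CPM in Veh and 181, 207 and 164 CPM in GSK, so the highest GSK sample was 13.0 CPM below the lowest Veh sample. The mean was 236 ± 15.1 CPM in Veh and 184 ± 21.6 CPM in GSK (SD, n = 3), a log2 fold change of -0.36 (SE 0.083, 95% interval -0.54 to -0.17, adjusted p = 0.011 by edgeR). Of Stat4's annotated exon bases, 26.7% are shared with Gm28177, a transcript on the same strand, and reads from those bases cannot be assigned to either gene from the counts. Relative to Stat3, a STAT gene whose level did not pass the test, the Stat4 counts were 0.799 to 0.948 in Veh and 0.651 to 0.813 in GSK, so these ratios overlapped.

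Stat5b and Stat5a encode the near-identical pair of factors through which IL-2 acts. Stat5b was measured at 143, 142 and 132 CPM in Veh and at 127, 121 and 124 CPM in GSK, with every GSK sample below every Veh sample. Its log2 fold change was -0.16 (SE 0.048, 95% interval -0.27 to -0.062, adjusted p = 0.018 by edgeR), from 139 ± 6.34 to 124 ± 2.84 CPM (SD, n = 3). This call depended on single samples: without Veh replicate 1 the log2 fold change was -0.14 with an adjusted p of 0.082, and without Veh replicate 2 it was -0.15 with an adjusted p of 0.069.

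Stat5a, at 54.3, 59.3 and 55.7 CPM in Veh and 54.8, 51.5 and 48.9 CPM in GSK, did not pass the test, and its groups overlapped. Its log2 fold change was -0.12 (SE 0.062, 95% interval -0.26 to 0.0081, adjusted p = 0.14 by edgeR). The interval of Stat5a holds the estimate of Stat5b. The number of Stat5a counts per Stat5b count was 0.407 ± 0.0241 in Veh and 0.417 ± 0.0197 in GSK (SD, n = 3), with overlapping ranges of 0.379 to 0.423 and 0.395 to 0.432. The genes share sequence: 608 of the 50-base windows of Stat5a, or 8.21%, also occur in Stat5b, so some reads of the pair may not be attributable to 1 of them.

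Stat5b, Stat5a and Stat3 are neighbours on chromosome 11 of GRCm38. Stat5b lies at chr11:100780731-100859004 on the minus strand, Stat5a at chr11:100859351-100885169 on the plus strand and Stat3 at chr11:100886806-100939594 on the minus strand. There are 346 bases between Stat5b and Stat5a and 1636 between Stat5a and Stat3, and the stretch from the first to the last of them spans 159 kb. Of these neighbours only Stat5b passed the test, with estimates of -0.16 for Stat5b, -0.12 for Stat5a and -0.059 for Stat3 on the log2 scale. These positions and distances are those of RefSeq. In GENCODE release M21 Stat3 reaches further, so that Stat3 and Stat5a share 72 exon bases on opposite strands in that annotation. Stat5b ends earlier there, at chr11:100850724, so that its distance to Stat5a is larger than in RefSeq. Socs3 lies on the same chromosome at chr11:117966079-117970336, Stat4 at chr1:51987106-52107189, Stat2 at chr10:128270498-128292853, Socs2 at chr10:95383903-95417321, Socs1 at chr16:10783808-10785536 and Cish at chr9:107296659-107302784.

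Stat3, the factor used by IL-6, IL-10 and IL-21, had the narrowest interval of the 9 genes. It was measured at 263, 275 and 264 CPM in Veh and at 265, 254 and 251 CPM in GSK, and the groups overlapped. The log2 fold change of -0.059 (SE 0.041, 95% interval -0.15 to 0.031, adjusted p = 0.30 by edgeR) did not pass the test, and the interval does not reach the estimate of Stat4.

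Stat2, the partner of IRF9 in the complex that answers type I interferon, was measured at 127, 129.9 and 106 CPM in Veh and at 137, 148 and 119 CPM in GSK. Replicate 3 was the lowest sample of each group, and the groups overlapped. The log2 fold change was 0.15 (SE 0.10, 95% interval -0.088 to 0.39, adjusted p = 0.31 by edgeR), an interval too wide to tell a rise like that of Socs2 from no change.

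**Figure D2:**
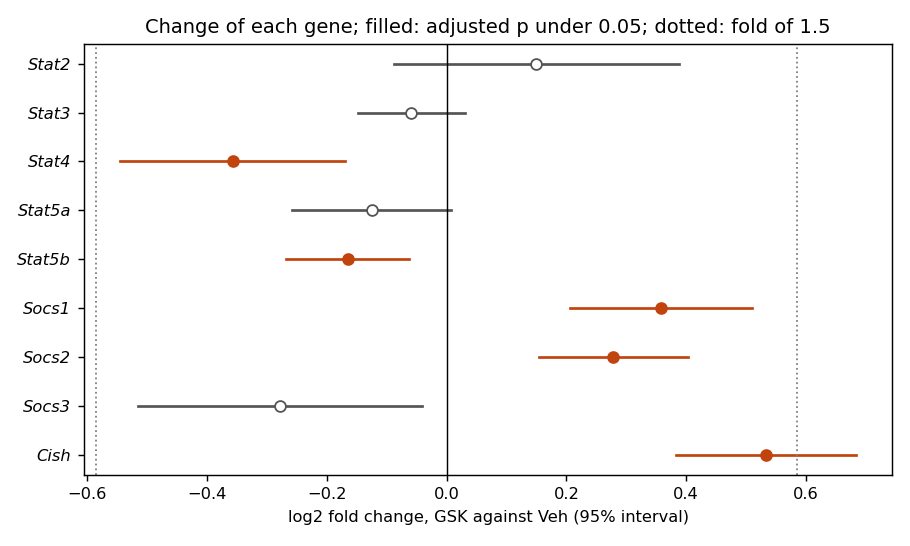
Log2 fold change of GSK against Veh for each of the 9 genes (points, with 95% intervals as lines), filled where the adjusted p was under 0.05, with dotted lines at a fold change of 1.5 in either direction. The points of Cish, Socs1 and Socs2 lie to the right of 0 and those of Stat4 and Stat5b to the left, all inside the dotted lines. The interval of Cish, 0.38 to 0.68, crosses the right-hand dotted line.

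Levels were compared between genes per kilobase of transcript, since a longer transcript yields more reads. Over all annotated exons of each gene, Stat4 had the highest level in both groups, 60.9 ± 3.89 CPM per kilobase in Veh and 47.5 ± 5.58 in GSK (SD, n = 3). In Veh it was followed by Stat3 at 28.1, Stat5b at 25.1, Socs1 at 24.5, Stat2 at 20.5, Cish at 19.7, Socs3 at 9.23, Stat5a at 7.91 and Socs2 at 7.41 CPM per kilobase. The neighbours Stat5b and Socs1, Stat2 and Cish, and Stat5a and Socs2 overlapped in their sample ranges. In GSK the order after Stat4 was Socs1 at 31.4, Cish at 28.5, Stat3 at 27.0, Stat2 at 22.7, Stat5b at 22.4, Socs2 at 8.98, Socs3 at 7.61 and Stat5a at 7.25 CPM per kilobase. Here Cish and Stat3, Stat2 and Stat5b, and Socs3 and Stat5a overlapped.

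The order depended on which length was used. Cish has 6419 annotated exon bases and a longest coding transcript of 2850 bases, and Socs2 has 9531 and 2222 bases. Per kilobase of the longest coding transcript, Cish in GSK stood at 64.2 CPM and overlapped Stat4 at 61.7, and Socs2 came next after Stat3 in both groups, at 31.8 CPM in Veh and 38.5 in GSK. Socs3 was then the lowest in both groups, at 10.5 and 8.62 CPM per kilobase.

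**Figure D3:**
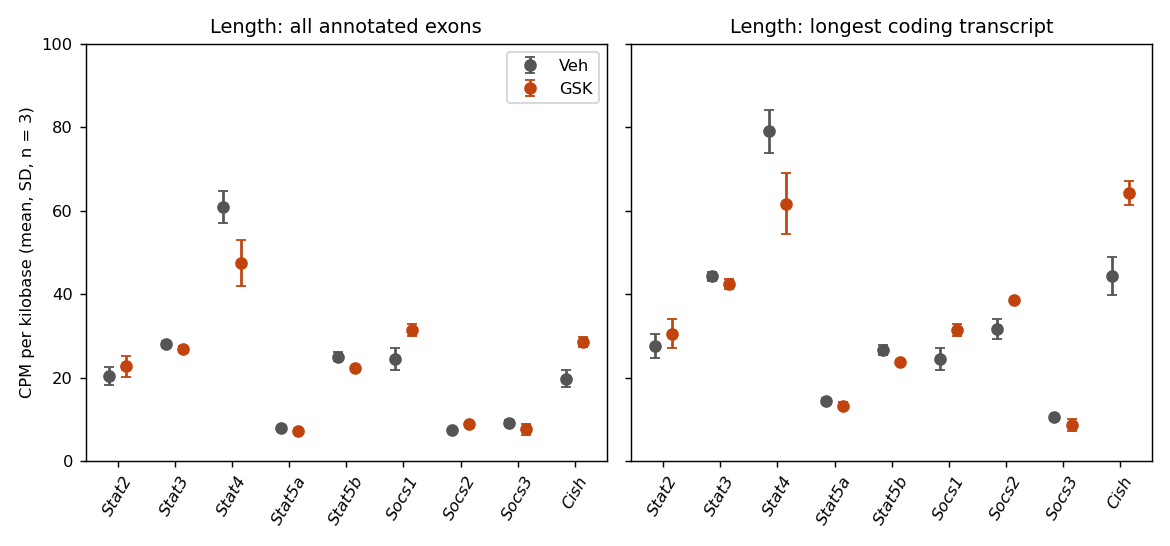
Level of each gene in CPM per kilobase (mean and SD, n = 3 samples per group, linear axis from 0), with lengths over all annotated exons on the left and of the longest coding transcript on the right. Stat4 leads in both groups on the left, while on the right Cish reaches 64.2 and Stat4 61.7 CPM per kilobase in GSK.

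The kinases and receptors upstream of the STATs were read from lists of genes, and each list's counts stand against the same 16.6% of all tested genes that were higher and 15.5% that were lower. Of the 4 JAK kinases, which phosphorylate the STATs, 3 fell, 1 did not pass the test and none rose (0 also at an unadjusted p under 0.05 and with DESeq2), with a median log2 fold change of -0.21. Jak3, the kinase bound to the common γ chain of the IL-2 receptor, fell from 301 ± 3.51 to 254 ± 21.5 CPM (SD, n = 3), a log2 fold change of -0.24 (adjusted p = 0.0050 by edgeR). Jak2 was at -0.27 (adjusted p = 0.0031) and Tyk2, which serves the IL-12 and interferon receptors, at -0.19 (adjusted p = 0.0088). Jak1, the partner of Jak3 at the IL-2 receptor, averaged 799 CPM in Veh against 738 in GSK, with a log2 fold change of -0.12 that did not pass (adjusted p = 0.35).

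Of 18 cytokine receptor chains, 4 rose, 4 fell and 10 did not pass, with a median of 0.0011 on the log2 scale. These counts lie near the shares of all tested genes (16.6% higher, 15.5% lower). Il2ra, the high-affinity chain of the IL-2 receptor, rose from 854 ± 26.7 to 1285 ± 55.5 CPM (SD, n = 3), a log2 fold change of 0.59 (SE 0.038, adjusted p = 6.4e-07 by edgeR). The chains that pass on the signal differed from it. Il2rb averaged 1633 CPM in Veh and 1645 in GSK, with a log2 fold change of 0.010 (adjusted p = 0.87 by edgeR), and Il2rg rose by 0.11 (adjusted p = 0.037). Il12rb1, a chain of the IL-12 receptor, rose by 0.31 on the log2 scale (adjusted p = 0.0016), and Il6ra, at 3.65 and 6.91 CPM in the groups, rose by 0.92 (adjusted p = 0.020). The chains that fell were both interferon-γ receptor chains, Ifngr1 at -0.42 (adjusted p = 3.3e-05) and Ifngr2 at -0.65 (adjusted p = 0.00060), with Il4ra at -0.39 (adjusted p = 0.017) and the interferon receptor chain Ifnar1 at -0.23 (adjusted p = 0.011).

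The other brakes on the pathway were mostly not past the test. Of the 4 SOCS genes besides those above, none rose (0 also at an unadjusted p under 0.05 and with DESeq2), and only Socs7 fell, at -0.21 on the log2 scale (adjusted p = 0.016 by edgeR). The median of these 4 genes was 0.035. Of 9 other negative regulators (phosphatases, PIAS proteins and the adaptor Sh2b3), 1 rose, 1 fell and 7 did not pass, with a median of -0.023, again near the shares of all tested genes (16.6% higher, 15.5% lower). Ptpn1, a phosphatase that acts on JAKs, rose by 0.24 (adjusted p = 0.0021), and Pias3, an inhibitor of STAT3, was at -0.28 (adjusted p = 0.034), a call that was not made with DESeq2.

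Genes known to respond to the STATs were listed by the factor. Of 13 targets of IL-2 and STAT5, 10 rose, none fell and 3 did not pass, with a median log2 fold change of 0.42. Over all tested genes 16.6% were higher and the median was -0.0039. DESeq2 called 9 of the 13 higher, all but Pim1 of the 10. None was lower at an unadjusted p under 0.05 or with DESeq2 either (0 by both). The smallest p values belonged to Prf1, which encodes perforin and was at 1.09 on the log2 scale (adjusted p = 3.9e-07 by edgeR), Il2ra, the cyclin gene Ccnd2 at 0.42 (adjusted p = 2.5e-05) and the survival gene Bcl2l1 at 0.53 (adjusted p = 3.3e-05). Those that did not pass were Pim2 at -0.079, Bcl2 at 0.12 and Myc at 0.17. Il2ra is also one of the receptor chains above, and many genes of this list answer to other signals as well. Cish, Socs1 and Socs2 were not counted in it. The list was chosen with earlier results of these data known. It also holds effector genes such as Prf1 and Gzmb, and the study reports effector molecules as generally higher with GSK. Its count is therefore a description and not a test of STAT5 activity.

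Of 7 targets of IL-12 and STAT4, 2 rose, 1 fell and 4 did not pass, with a median of -0.039, beside 16.6% higher and 15.5% lower over all tested genes. Ifng, the gene of interferon-γ, rose from 4.75 ± 2.08 to 12.4 ± 1.92 CPM (SD, n = 3), a log2 fold change of 1.39 (SE 0.31, adjusted p = 0.014 by edgeR), and the stress gene Gadd45g rose by 1.15 (adjusted p = 1.4e-06). Tbx21, which encodes the transcription factor T-bet, fell by 0.64 (adjusted p = 4.6e-05). Stat4 and these genes therefore did not move in 1 direction.

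Of 9 tested genes linked to STAT3, 5 rose, 1 fell and 3 did not pass, with a median of 0.15, beside 16.6% higher and 15.5% lower over all tested genes. Il10, the gene of the cytokine IL-10, rose from 2.94 to 13.2 CPM, by 2.16 on the log2 scale (SE 0.21, adjusted p = 2.5e-05 by edgeR). Maf, a transcription factor that drives Il10, was at 0.84 (adjusted p = 0.0092), Bcl3 at 0.44 (adjusted p = 0.0046) and Hif1a at 0.15 (adjusted p = 0.0095). Pim1, which is shared with the list of STAT5 targets, was at 0.11 (adjusted p = 0.042), a call that was not made with DESeq2, and Junb was the gene that fell, at -0.17 (adjusted p = 0.034).

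Of 9 tested interferon genes that answer to the STAT2 complex, none passed the test in either direction (0 with edgeR), although their median log2 fold change was 0.57. At an unadjusted p under 0.05, 1 was higher and 0 were lower, and DESeq2 called 1 higher and 0 lower. With the replicate number as a block in edgeR, 7 were higher and 0 lower, but these numbers were not shown to pair the samples. The gene at an unadjusted p under 0.05 was Usp18, an interferon-induced brake on the receptor, with a mean of 29.8 ± 8.11 CPM in Veh and 47.4 ± 8.91 in GSK (SD, n = 3) and an adjusted p of 0.10. These genes varied widely between samples of 1 group: Ifit3 averaged 20.0 ± 7.74 CPM in Veh and 37.8 ± 14.9 in GSK (SD, n = 3), with a 95% interval of its log2 fold change from -0.36 to 2.20.

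**Figure D4:**
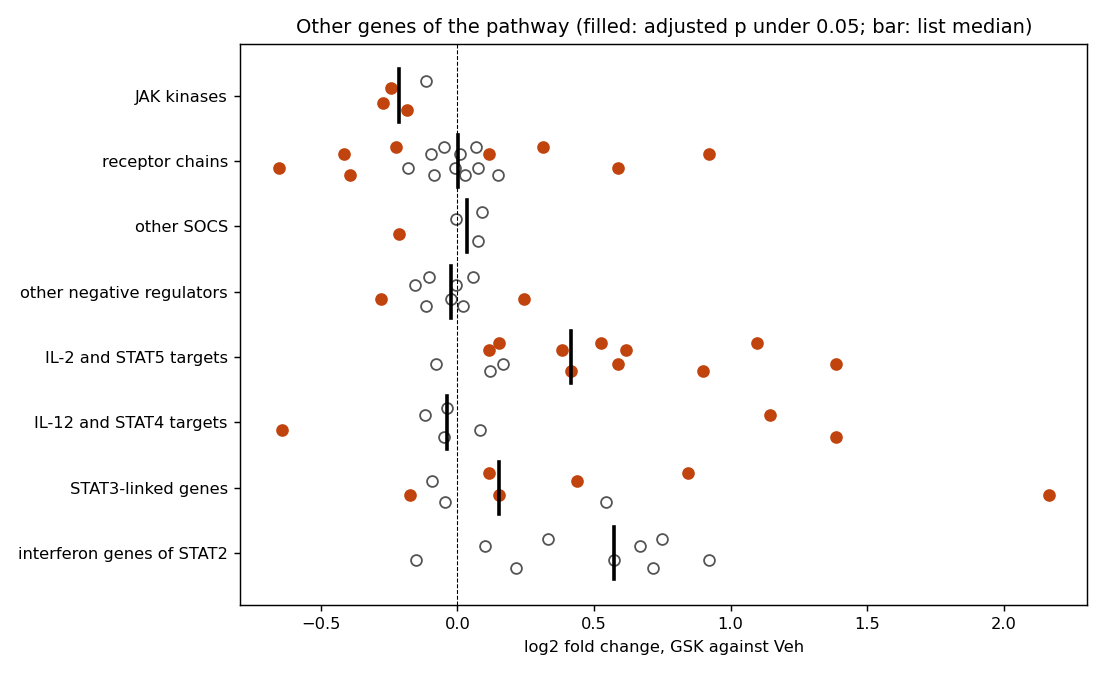
Log2 fold change of GSK against Veh for the tested genes of each list (points, filled where the adjusted p was under 0.05), with the median of each list as a black bar and a dashed line at 0. The 3 JAK kinases that passed lie left of 0 and the 10 IL-2 and STAT5 targets that passed lie right of it, and all points of the interferon genes are open.

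For each of the 5 genes that passed, the tested genes with the most similar pattern over the 6 samples were found among 8691 genes with a mean of at least 10 CPM, as the root mean square difference of centred log2 CPM. Cish was closest to Plekha1 (0.013) and Znhit6 (0.033), and Socs1 to Fam220a (0.042) and Lrrc14 (0.045). Socs2 was closest to Gtf3c5 (0.013) and Slc25a25 (0.022), Stat4 to Qsox1 (0.015) and Tlr1 (0.023), and Stat5b to Rpusd4 (0.020) and Taf1b (0.021). With 6 samples and 8691 candidates, close matches are to be had for any gene, and these names are a description.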

How the data were processed

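RNA of 3 Veh and 3 GSK samples of CD8+ T cells was measured by RNA-seq of poly(A)+ RNA with a stranded kit. The submitters' processing notes name Trimmomatic, HISAT2 (2.1.0), HTSeq (0.11.2), Cufflinks (2.2.1), DESeq2 (1.22.2) and GRCm38. The deposited values are whole read counts per gene, made by the authors with HTSeq and not normalized. The annotation release and the strand setting of the counting are not given in the sources used here, so overlapping genes cannot be told apart with certainty.

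Counts were tested in R (4.3.3) with edgeR (4.0.16), with TMM scaling, filterByExpr and the robust quasi-likelihood test of GSK against Veh, and p-values were adjusted by Benjamini-Hochberg over the 11698 genes tested. Standard errors were derived from the test statistic, and intervals are 95%. DESeq2 (1.42.0) was an alternative. With 3 against 3 samples, an exact two-sided permutation test of 1 gene cannot give a p under 0.1, so none was run. The test was checked on simulated counts with planted changes larger than those of the genes described here. The check therefore does not cover changes of their size. Total counts of 18288447 to 19846720 set the depth. Replicates of a group differed by more than sampling noise in every pair (chi-square per degree of freedom 4.07 to 9.38).

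Coordinates and promoter windows came from RefSeq tables of GRCm38.p6, and exon lengths from GENCODE release M21 of GRCm38. Transcript lengths were a choice made after seeing the data.

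The genes and lists were chosen with earlier results of these data known. Named were the 9 genes, their 2 most similar genes where they passed, up to 4 genes of each list with the smallest p past the test, and Il2ra, Il2rb, Il2rg, Jak1 and Jak3. Il6ra, Il4ra, Ifnar1, Pim1, Pim2, Junb, Bcl2, Myc, Usp18, Ifit3 and Bst2 were named after their values were seen. Of the count ratios, only that of Stat5a to Stat5b was planned. The alternatives were DESeq2, other scaling, other filters on low counts, the fold change limit, the replicate number as a block, and leaving out each sample. The authors' other assays were not analysed here.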

Additional observations from a re-analysis of the deposited data

How the results depend on the processing

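Cish, Socs1, Socs2 and Stat4 kept their direction and passed an adjusted p of 0.05 in each of 11 refits (leaving out each sample, blocking on the replicate number, RLE scaling, DESeq2, and stricter or no filtering), with log2 fold changes of 0.46 to 0.60, 0.31 to 0.45, 0.22 to 0.31 and -0.45 to -0.28. Stat5b passed in 9 of 11. It did not pass without Veh replicate 1 (-0.14, adjusted p = 0.082) or Veh replicate 2 (-0.15, 0.069), and its range over left-out samples was -0.20 to -0.14. Socs3 passed with no filter (-0.28, adjusted p = 0.048) and without GSK replicate 1 (-0.38, 0.041), with a range of -0.38 to -0.15 over left-out samples. Leaving out 1 sample gave 1 to 3 lower genes among the 9, beside 1281 to 2013 lower genes among all tested. The count among the 9 was 1 without Veh replicate 1 or 2, where 1311 and 1530 of all tested genes were lower. Higher genes numbered 3 among the 9 each time, beside 1288 (without GSK replicate 1) to 2090 among all tested. With a fold change over 1.5 added, 260 genes were higher and 479 lower, and 0 and 0 of the 9. With DESeq2, Pias3 and Pim1 did not pass, which left 0 other negative regulators lower, and 1 interferon gene (Bst2) was higher. The cause of these changes was not tested.

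The numbers of the replicates were not shown to pair the samples: deviations from the group means correlated at -0.052, -0.081 and 0.16 for numbers 1, 2 and 3. Not every sample correlated best with its own number. The highest values were Veh 1 with GSK 2 (0.22), Veh 3 with GSK 3 (0.16) and Veh 2 with GSK 1 (0.11). All other pairs correlated negatively. Whether cultures shared a mouse under other numbers was not tested. With the replicate block, 1703 genes were higher and 1600 lower, Stat2 (0.15, adjusted p = 0.046) and Socs3 (-0.29, 0.033) passed, 4 of the 9 genes were higher and 3 lower, 7 interferon genes and Myc were higher, and Il2rg and Pim1 did not pass. The block changed no other call among the 9 genes. The number of samples and the depth limit what was detectable, and levels per kilobase depend on the transcript length chosen.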

Other observations

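The deposited gene annotation names 133 genes of the JAK-STAT pathway, among them the 9 genes described above. Of the other 124, 80 were tested, and 18 of these (22.5%) were higher and 14 (17.5%) lower in GSK at an adjusted p under 0.05 by edgeR, beside 16.6% and 15.5% of all tested genes. The remaining 48 did not pass. Their median log2 fold change was -0.016. This wider list was chosen after seeing the data.

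The samples within a group differed unequally between genes. The coefficient of variation over the 3 GSK samples was 0.496% for Socs2 and 16.4% for Socs3, and over the 3 Veh samples it was 7.58% and 6.11%. For Stat4 it was 6.39% in Veh and 11.7% in GSK. GSK replicate 3 was the lowest GSK sample for Stat2, Stat3, Stat4, Stat5a, Socs1, Socs2 and Socs3, and Veh replicate 3 was the lowest Veh sample for Stat2, Stat5b, Socs1, Socs2, Socs3 and Cish.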
